A study of Homo sapiens with 10 samples.

Results

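The cadherin and protocadherin genes are those whose symbols in the tables read CDH or PCDH, an optional letter code for the cluster, and a number. This rule took 89 genes of the 23585 with 1 row each on the assembled chromosomes: 5 type I cadherins, 13 type II cadherins, 5 other cadherins, 11 non-clustered protocadherins, and 15 alpha, 18 beta and 22 gamma genes of the clustered protocadherins. No symbol stood on more than 1 row. The rule reads symbols and no measured value, but it was set with earlier results of these data known. Poly(A) RNA was sequenced from SH-SY5Y, a human neuroblastoma line of sympathoadrenal origin, 72 h after transfection. The 4 groups were treated with siRNA to LncND, a long non-coding RNA, at 100 nM (3 libraries), scrambled siRNA (3 libraries), a mimic of the microRNA miR-143-3p at 50 nM (2 libraries) and scrambled miRNA (2 libraries). No dose of the scrambled controls is stated in the labels, and all groups come from this single tumour line. The labels do not tell whether replicates came from separate cultures, so the p-values may reflect technical spread alone. LncND has no row of its own and its level was not analysed here.

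Cadherins are calcium-dependent adhesion receptors whose extracellular repeats bind the same or a related cadherin on the neighbouring cell. Type I and type II cadherins hold cells together through catenins, which link their cytoplasmic tails to actin, and neural cells are sorted by which of them they carry. Clustered protocadherins stand in tandem arrays on chromosome 5, and each neuron transcribes its own combination of them, which gives its surface an identity that sister branches recognise. Non-clustered protocadherins are dispersed genes, several of which recruit actin regulators to cell contacts.

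Values are FPKM, fragments scaled to transcript length and library size, as deposited in 1 table for each pair of groups. Each table was normalized separately, so treated libraries were tested against the controls of the same table. Estimated depth was 13900000 to 44200000 fragments in 9 libraries, and either 28400000 or 14200000 in scrambled miRNA replicate 1. LncND siRNA replicate 1 stood apart through 1 short RNA, RNY4, listed at 1224670 FPKM. Its FPKM summed over genes of 300 bp or longer was 433000, within the 406000 to 448000 of the other 9 libraries. All 10 noradrenergic marker genes were detected, with summed levels of 1510 to 2530 FPKM over the libraries, while 5 of 8 endothelial and blood markers and 4 of 8 Schwann and glial markers lay under 0.1 FPKM in every library.

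Of the 89 genes, a mean of at least 1 FPKM was reached by 29 in the siRNA table and by 29 among the miRNA libraries. In all, 25 passed in both tables and 33 in either, and only these entered the main tests. Just above the limit in the siRNA table stood CDH3 at a mean of 1.11 FPKM, and just below it PCDHB8 at 0.989 FPKM. In the miRNA table CDH7 passed at 1.1 FPKM and PCDHB15 missed it at 0.862 FPKM. CDH3, PCDH1 and PCDH9 in the siRNA table, and CDH7, CDH20 and PCDHA2 in the miRNA table, passed only through the group in which they were high, so the filter itself depended on the difference tested and their values carry more weight than their p. Changes are differences of log2(FPKM + 1) with their standard error, which understate the change of low genes, and p-values are from limma with Benjamini-Hochberg adjustment over all genes tested.

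With LncND siRNA, 17 of 29 tested genes changed, 14 higher and 3 lower. Of all 12601 genes tested there, 66.9% changed, 36.6% higher and 30.3% lower, so the share of these genes that changed was not above the background. Changes of at least 1.5-fold on this scale were found for 8 of 29, against 12.3% of all genes. With the miR-143-3p mimic, 23 of 29 changed, 18 higher and 5 lower, against 63.3% of all 12558 genes, 24.6% higher and 38.6% lower. Of these, 11 changed by at least 1.5-fold, against 13.1% of all genes. The median change of the tested members was 0.15 with LncND siRNA and 0.28 with the mimic, beside 0.02 and -0.06 over all genes tested. Because the filter admits a gene through its higher group, these counts and medians describe the tested genes only. The RNA came from whole cultures, in which fewer cells of a type and less RNA per cell cannot be told apart.

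**Figure D1:**
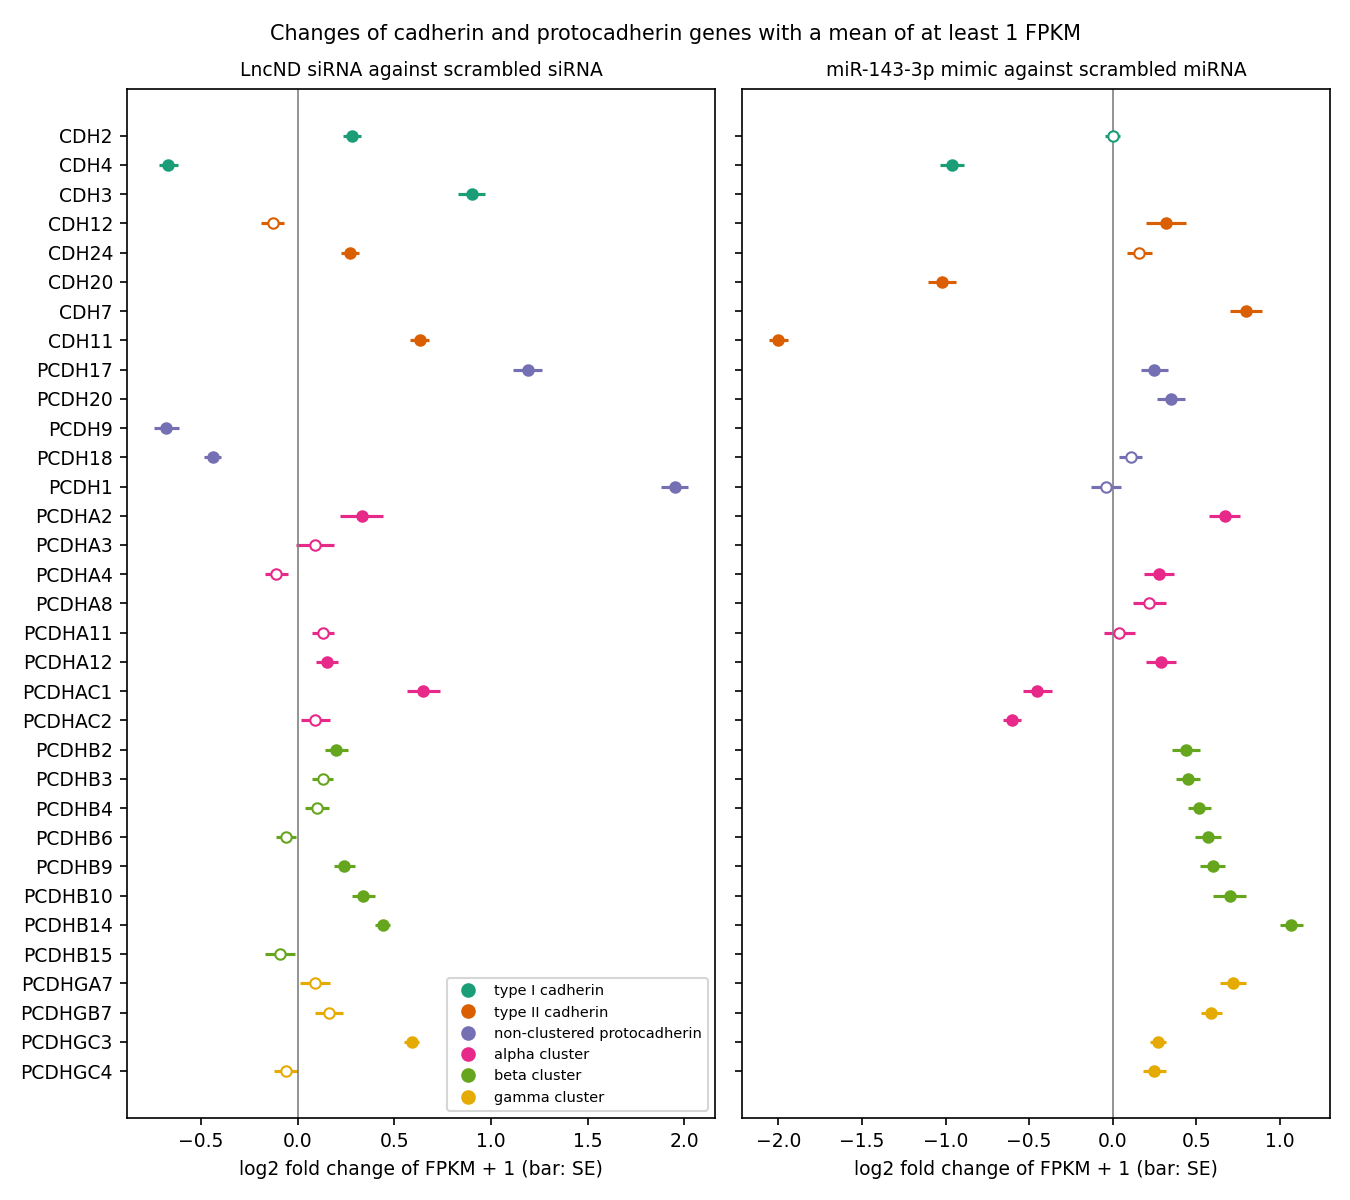
Change of each tested gene on the log2(FPKM + 1) scale (x axis, bars are standard errors) with LncND siRNA (left, 3 against 3 libraries) and with the miR-143-3p mimic (right, 2 against 2); filled points passed an adjusted p of 0.05, open points did not, and colours are gene families. CDH11 stood at 0.63 on the left and at -2.0 on the right, PCDH1 at 1.95 and -0.04, and all 7 tested beta genes on the right were above 0.

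CDH11, a type II cadherin of mesenchymal and neural crest cells, was the member that moved in opposite directions by the largest amount. Its level was 19.4, 18.8 and 18.6 FPKM with scrambled siRNA and 27.7, 31.5 and 30.2 FPKM with LncND siRNA. With scrambled miRNA it was 19.7 and 20.3 FPKM, and with the mimic 4.33 and 4.19 FPKM. The control libraries of both tables lay close together, every LncND siRNA library was above them and both mimic libraries were far below. The log2 change was 0.63 ± 0.049 (adjusted p = 2.03e-06) with LncND siRNA and -2.0 ± 0.056 (adjusted p = 1.88e-08) with the mimic, a 4.69-fold lower mean. The difference of both changes was 2.62 ± 0.073 (adjusted p = 2.4e-11, limma over all 10 libraries). The gene spans chromosome 16, 64980682 to 65155919 (hg19).

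CDH11 is also the tested gene whose longest annotated 3′ untranslated region holds an 8-base match to the miR-143-3p seed, the bases of a microRNA that pair with a target. The mature microRNA is shown with its seed, bases 2 to 8, in capitals (RefSeq, GRCh38.p14, chr5:149428978-149428998, plus strand), above the site with the match in capitals (GENCODE 29, GRCh38, match at chr16:64945643-64945650, minus strand).
hsa-miR-143-3p: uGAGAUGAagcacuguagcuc
CDH11: tttagaatcttTCATCTCAgtgaaggatta
CDH20: atgatgtactgCATCTCAgtaccttagca
CDH7: gttgcaggtcaCATCTCAaagaggagcac
PCDHB10: ttcagagcttgCATCTCAtgattctaatc
The 3 lower lines show 7-base matches in genes that changed by at least 1.5-fold with the mimic: CDH20 fell, while CDH7 and PCDHB10 rose. The searched matches on the transcript strand were TCATCTCA, TCATCTC without the final A, and CATCTCA without the first T, and the longer form was counted once. Of the 29 genes tested with the mimic, 7 (24.1%) held a match, beside 24.8% of 11196 tested genes with an annotated region. Their median change was 0.25 with a match and 0.31 without, beside -0.12 and -0.05 over all genes. CDH4, PCDHAC1 and PCDHAC2, which fell with the mimic, held no match in the regions searched. A match describes the sequence and was not tested as a binding site.

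Markers of mesenchymal cells moved beside CDH11 in the mimic libraries. Their summed level was 576 to 584 FPKM with scrambled miRNA and 482 to 484 FPKM with the mimic. Most of that fall came from VIM, which went from 398 ± 3.48 to 324 ± 2.48 FPKM (SD, n = 2, log2 change -0.3). Of the 6 tested, 5 fell, beside 38.6% of all genes tested. After median-ratio scaling or quantile normalization 4 of 6 fell and 1 rose. PDGFRB, a growth factor receptor, fell from 22.3 ± 0.392 to 7.3 ± 0.16 FPKM (SD, n = 2, log2 change -1.49, limma adjusted p = 4.57e-08). With LncND siRNA the mesenchymal sum was 502 to 507 FPKM against 507 to 522 FPKM. There 1 of 6 tested rose and 4 fell, beside 36.6% and 30.3% of all genes. Of the Schwann and glial markers, S100B was the one above the filter. It rose with LncND siRNA from 3.06 ± 0.0425 to 5.92 ± 0.126 FPKM (SD, n = 3, 0.77, limma adjusted p = 2.62e-07) and fell with the mimic from 3.92 ± 0.568 to 2.84 ± 0.157 FPKM (SD, n = 2, -0.35, adjusted p = 0.00726), directions that CDH11 and PCDHAC1 also had. S100B made up most of the sum of all 8 and most of its changes. That sum was 3.74 to 3.9 FPKM with scrambled siRNA and 6.83 to 7.18 FPKM with LncND siRNA. It was 4.63 to 5.58 FPKM with scrambled miRNA and 3.61 to 3.71 FPKM with the mimic. The part of mesenchymal or glial cells in these results was not tested.

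CDH2, the N-cadherin of neural cells, had the highest level of all members in both tables. It was 70.3, 70.6 and 70.2 FPKM with scrambled siRNA and 79.8, 88.6 and 89.0 FPKM with LncND siRNA. The groups did not overlap, and the gene rose by 0.28 ± 0.046 on the log2 scale (adjusted p = 0.000394), a 1.22-fold higher mean. With scrambled miRNA it was 67.0 and 69.5 FPKM and with the mimic 69.2 and 67.4 FPKM, so the libraries overlapped (0.00 ± 0.043, adjusted p = 0.978). The difference of the changes passed in limma (0.28 ± 0.067, adjusted p = 0.00289) but not after quantile normalization (0.17, adjusted p = 0.0836).

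CDH4, the R-cadherin of retina and brain, was the type I cadherin that fell in both comparisons. Its level was 3.53, 3.71 and 3.7 FPKM with scrambled siRNA and 1.98, 1.89 and 1.89 FPKM with LncND siRNA. It was 5.47 and 5.43 FPKM with scrambled miRNA and 2.34 and 2.29 FPKM with the mimic. Neither pair of groups overlapped, with log2 changes of -0.67 ± 0.05 (limma adjusted p = 1.44e-06) and -0.96 ± 0.07 (2.76e-06). The difference of 0.29 ± 0.075 passed (adjusted p = 0.00466) but not after quantile normalization (0.08, adjusted p = 0.375).

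CDH3, the P-cadherin of epithelia, was 0.482, 0.443 and 0.493 FPKM with scrambled siRNA and 1.63, 2.0 and 1.63 FPKM with LncND siRNA. All LncND siRNA libraries were higher, a 3.71-fold higher mean (log2 change 0.90 ± 0.071, limma adjusted p = 2.27e-06). CDH3 passed the filter through the LncND siRNA group alone, so its values carry more weight than its p. It did not pass the filter in the miRNA table, where it was 0.703 and 0.538 FPKM in controls and 0.442 and 0.432 FPKM with the mimic. The summed level of 9 epithelial markers moved with it, from 1.58 to 1.65 FPKM in the controls to 4.36 to 4.62 FPKM with LncND siRNA. Most of that came from CLDN4, a tight junction claudin, which rose from 0.621 ± 0.0504 to 2.17 ± 0.23 FPKM (SD, n = 3), and 2 of the 9 stayed under 0.1 FPKM in all libraries. CDH1, the E-cadherin that defines epithelia, was at most 0.05 FPKM in every library, and CDH5, the endothelial cadherin, was at most 0.0047 FPKM. The part of epithelial cells in the CDH3 result was not tested.

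Among the type II cadherins below CDH11, CDH20 and CDH7 moved in opposite directions with the mimic. CDH20 was 2.63 and 2.55 FPKM with scrambled miRNA and 0.749 and 0.797 FPKM with the mimic, a 3.35-fold lower mean (log2 change -1.02 ± 0.084, limma adjusted p = 6.64e-06). CDH7, which marks migrating neural crest in some species, was 0.457 and 0.598 FPKM with scrambled miRNA and 1.73 and 1.6 FPKM with the mimic. It rose by 0.80 ± 0.096 (limma adjusted p = 6.72e-05), a 3.15-fold higher mean. CDH20 passed the filter through the controls alone and CDH7 through the mimic group alone, so their values carry more weight than their p. Both genes lay under the filter in the siRNA table, CDH20 at 0.34 to 0.537 FPKM over all 6 libraries with overlapping groups. CDH7 was there 0.449 to 0.519 FPKM in controls and 0.113 to 0.188 FPKM with LncND siRNA, without overlap and in the other direction than with the mimic.

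CDH24, a type II cadherin below CDH11 in 8 libraries and above it in both mimic libraries, was 13.9, 15 and 13.6 FPKM with scrambled siRNA and 16.4, 17.5 and 17.8 FPKM with LncND siRNA (log2 change 0.27 ± 0.048, limma adjusted p = 0.000656). With scrambled miRNA it was 10.3 and 9.03 FPKM and with the mimic 11.5 and 10.3 FPKM, which did not pass (0.16 ± 0.074, adjusted p = 0.0829). The call with the mimic depends on the scaling: it passed after median-ratio scaling (0.22, adjusted p = 0.0251) and quantile normalization (0.23, adjusted p = 0.0224). CDH12 rose with the mimic from a mean of 1.31 to 1.88 FPKM (0.32 ± 0.12, limma adjusted p = 0.0379). It was 1.58 and 1.36 FPKM with scrambled and LncND siRNA (-0.13 ± 0.06, adjusted p = 0.0808). After quantile normalization this fall with LncND siRNA passed (-0.27, adjusted p = 0.00238).

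**Figure D2:**
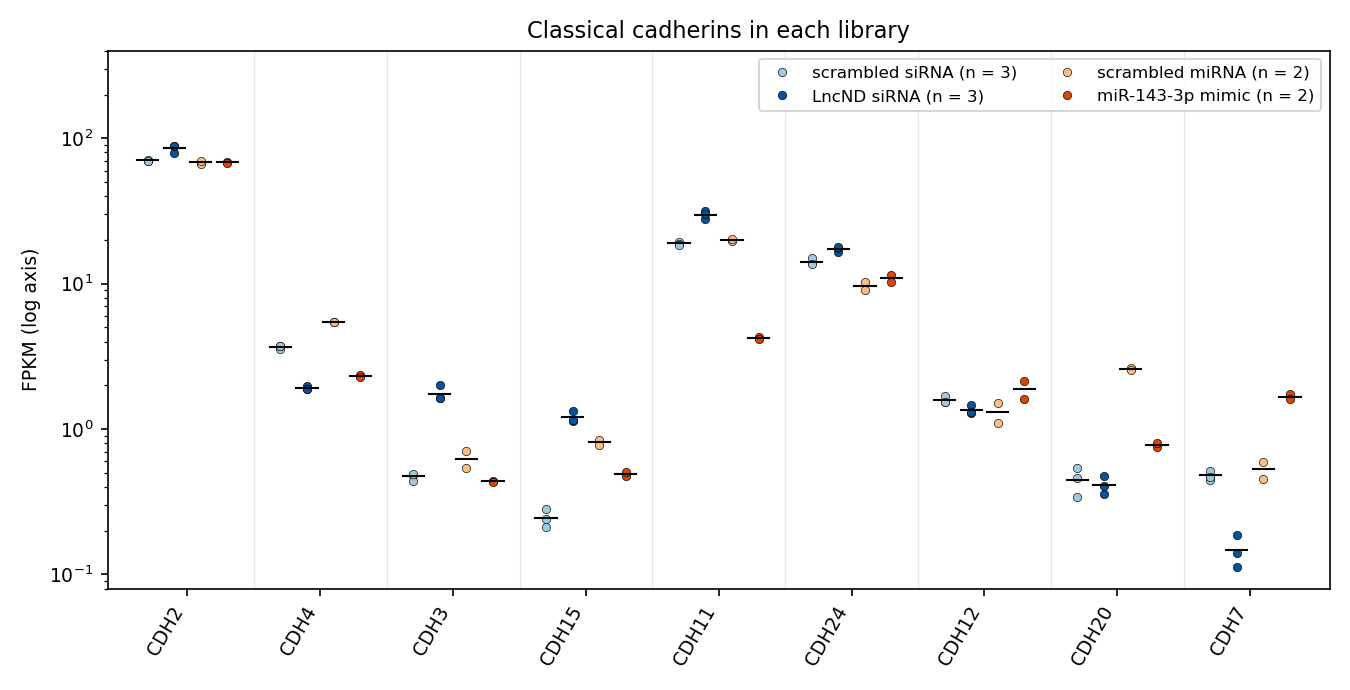
FPKM (log axis) of 9 type I and type II cadherins in each library; points are libraries, horizontal lines are group means, and colours are the 4 groups. CDH2 stood at 67.0 to 89.0 FPKM in every library, whereas the mimic libraries of CDH11 lay at 4.33 and 4.19 FPKM, below the other groups.

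PCDH1, a non-clustered protocadherin of epithelia and brain, rose more with LncND siRNA than any other tested member. It was 0.507, 0.483 and 0.588 FPKM with scrambled siRNA and 4.34, 5.15 and 5.19 FPKM with LncND siRNA. The lowest treated library was thus well above the highest control, with a 9.3-fold higher mean (log2 change 1.95 ± 0.07, limma adjusted p = 1.91e-08). The control mean of 0.526 FPKM lay under the filter, which PCDH1 passed through the LncND siRNA group alone. With scrambled miRNA it was 1.75 and 1.44 FPKM and with the mimic 1.51 and 1.54 FPKM, which overlapped (-0.04 ± 0.092, adjusted p = 0.73). The difference of the changes was 1.98 ± 0.11 (adjusted p = 1.15e-08). PCDH1 lies on chromosome 5 at 141232672 to 141257944 (hg19), beyond the last row of the clustered genes at 140892548.

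PCDH17, which recruits actin regulators along growing axons and at synapses, was 2.24, 2.07 and 1.9 FPKM with scrambled siRNA and 5.26, 6.29 and 6.47 FPKM with LncND siRNA. It rose by 1.19 ± 0.074 (limma adjusted p = 4.51e-07), a 2.9-fold higher mean with no overlap. With scrambled miRNA it was 1.61 and 1.71 FPKM and with the mimic 2.12 and 2.19 FPKM (0.25 ± 0.081, adjusted p = 0.0226), and this smaller change lost its call without mimic replicate 2 (adjusted p = 0.0694) or scrambled miRNA replicate 1 (0.101). The changes differed by 0.94 ± 0.11 (adjusted p = 9.08e-06).

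PCDH9 and PCDH18, both delta protocadherins, fell with LncND siRNA. PCDH9 was 2.33, 2.17 and 1.97 FPKM with scrambled siRNA and 0.99, 0.917 and 1.0 FPKM with LncND siRNA, a 2.23-fold lower mean (log2 change -0.68 ± 0.063, limma adjusted p = 6.62e-06). It passed the filter through the controls alone, so its values carry more weight than its p. PCDH18 fell from a mean of 8.39 to 5.95 FPKM (-0.44 ± 0.045, adjusted p = 1.41e-05) and was 4.12 and 4.54 FPKM with scrambled miRNA and mimic (0.11 ± 0.069, adjusted p = 0.175; 0.19, 0.0324 after quantile normalization). PCDH20 rose with the mimic from a mean of 1.62 to 2.34 FPKM (0.35 ± 0.086, adjusted p = 0.00569). The 4 tested non-clustered genes of the siRNA table were therefore 2 that rose and 2 that fell, beside 36.6% and 30.3% of all genes tested.

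PCDH10, another delta protocadherin, lay under the filter, with 1.36 and 1.28 FPKM with scrambled miRNA and 0.261 and 0.179 FPKM with the mimic. The mean was 6.0-fold lower with the mimic, and it is given with no test, because it would pass a filter lowered to 0.3 FPKM only through the controls. CDH23, a tip link protein of hair cells, was 1.39 and 1.24 FPKM with scrambled miRNA and 0.378 and 0.321 FPKM with the mimic (-0.78 ± 0.091, limma adjusted p = 0.000112 at a filter of 0.3 FPKM). CDH15, the M-cadherin of muscle, was 0.284, 0.241 and 0.213 FPKM with scrambled siRNA and 1.34, 1.14 and 1.15 FPKM with LncND siRNA. Its mean was 4.91-fold higher, also given with no test because the controls lay under the lower filter, and with the mimic it fell by 0.28 ± 0.09 (adjusted p = 0.025). At the same filter PCDH7 fell by 0.38 ± 0.056 with LncND siRNA, and it was 0.488 and 0.486 FPKM with scrambled miRNA and 0.254 and 0.195 FPKM with the mimic.

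**Figure D3:**
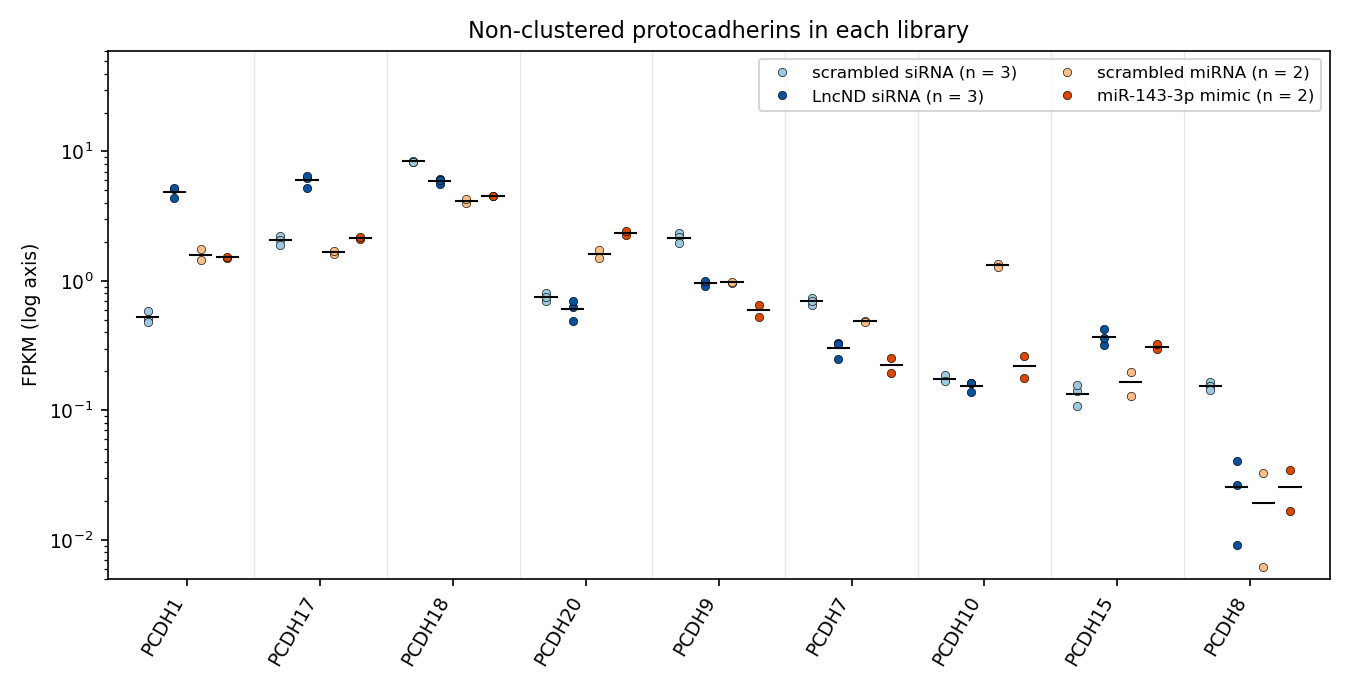
FPKM (log axis) of 9 non-clustered protocadherins in each library; points are libraries, horizontal lines are group means, and colours are the 4 groups. PCDH1 stood at 4.34 to 5.19 FPKM with LncND siRNA and below 2 FPKM in all other libraries, and the control libraries of PCDH10 stood apart between the tables.

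The clustered protocadherins lie side by side on chromosome 5 between 140165875 and 140892548 (hg19). A gene of the alpha or gamma cluster joins its own first exon to last exons that the whole cluster shares, while beta genes have no shared exons. All 15 alpha rows end at 140391929 and 21 of 22 gamma rows at 140892546. In the annotated coding transcripts, 47.7% to 68.9% of the 50-base words of an alpha gene also occur in another clustered gene. For a gamma gene this share is 45.3% to 57.7%. For the 16 beta genes searched it is 0.0% to 45.7%, with a median of 13.6%. It is highest for PCDHB8, at 45.7%, and PCDHB10, at 35.4%. PCDHB17 and PCDHB18, which have no coding transcript under these names, were not searched. A single alpha or gamma value thus rests on how Cufflinks divided shared fragments, and is uncertain. Most sequence of each searched beta gene occurs in no other clustered gene searched.

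The beta genes moved together with the mimic. All 7 tested beta genes rose, by 0.44 to 1.07, beside 24.6% of all genes tested. The count of 7 also held after median-ratio scaling, quantile normalization and rescaling to genes of 300 bp or longer. Over all 18 beta rows, low ones included, both mimic libraries were above both controls in 16, against 23.1% of all 23426 genes. The exceptions were PCDHB1, at or under 0.0258 FPKM in the 4 libraries, and PCDHB18, whose libraries overlapped. Summed over the cluster, the level was 23.3 and 25.7 FPKM with scrambled miRNA and 43.8 and 42.9 FPKM with the mimic, a 1.77-fold higher mean.

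PCDHB14 had the largest change among them and the highest level in 8 of the 10 libraries. It was 4.19 and 4.78 FPKM with scrambled miRNA and 10.7 and 10.4 FPKM with the mimic. The mean was 2.35-fold higher, and the log2 change was 1.07 ± 0.07 (limma adjusted p = 1.38e-06). In both scrambled miRNA libraries PCDHB3 stood first instead, at 5.35 and 6.14 FPKM, and it rose to 8.23 and 8.18 FPKM (0.45 ± 0.071, adjusted p = 0.000384). PCDHB14 was 18% to 28.8% of the cluster's summed FPKM.

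PCDHB10 was 1.62 and 2.21 FPKM with scrambled miRNA and 3.55 and 3.89 FPKM with the mimic (log2 change 0.70 ± 0.1, limma adjusted p = 0.000243). PCDHB9 was 2.69 and 3.05 FPKM with scrambled miRNA and 4.88 and 4.8 FPKM with the mimic (0.60 ± 0.075, adjusted p = 9.53e-05). In neither gene did the groups overlap. PCDHB2, PCDHB4 and PCDHB6 rose by 0.44, 0.52 and 0.57. At the filter of 0.3 FPKM, PCDHB8, PCDHB15 and PCDHB16 also passed the test, while PCDHB5 and PCDHB13 (0.24 each) did not. PCDHB7, PCDHB12 and PCDHB17 passed it too, but their control means of 0.17, 0.219 and 0.259 FPKM lay under that filter, so their calls add nothing to their values. Of the 1434 genes which only that filter admits, 12.3% rose and 20.5% fell.

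With LncND siRNA the beta genes changed less. Of 8 tested, 4 rose, beside 36.6% of all genes tested: PCDHB14, PCDHB10, PCDHB9 and PCDHB2. PCDHB14 was 8.77, 8.73 and 8.44 FPKM with scrambled siRNA and 11.9, 12.3 and 12 FPKM with LncND siRNA (log2 change 0.44 ± 0.038, limma adjusted p = 4.35e-06). PCDHB3, PCDHB4, PCDHB6 and PCDHB15 had changes of 0.13, 0.10, -0.06 and -0.09 and did not pass. After quantile normalization the split was 3 higher and 2 lower. Libraries did not overlap and were higher in 7 of 18 rows, against 26.7% of all genes, and the cluster sum went from 36.0 to 36.9 FPKM in controls to 41.3 to 45.2 FPKM. The changes differed between the comparisons for all 7 beta genes tested in both, by -0.64 to -0.24 (LncND siRNA minus mimic); for PCDHB14 this was -0.64 ± 0.073 (adjusted p = 6.84e-06). For PCDHB10 (-0.37 ± 0.12, adjusted p = 0.0178) the call was lost without mimic replicate 2 (0.0701) or without scrambled miRNA replicate 1 (0.11).

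**Figure D4:**
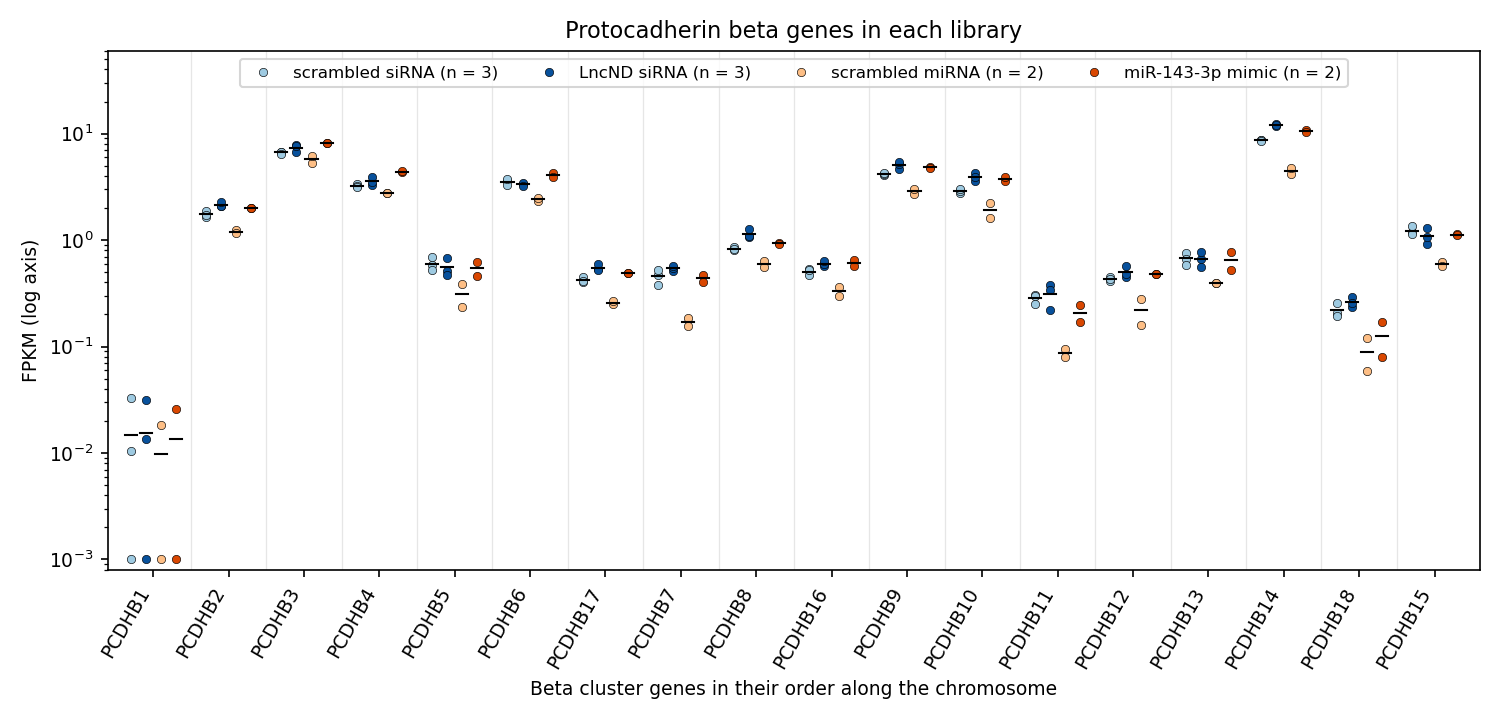
FPKM (log axis) of the 18 beta cluster rows in their order along chromosome 5. Points are libraries, horizontal lines are group means, and colours are the 4 groups. PCDHB17 and PCDHB18 have no annotated coding transcript under these names. Except for PCDHB1 and PCDHB18, both mimic libraries stand above both scrambled miRNA libraries at each gene, from the rows under 1 FPKM up to PCDHB14.

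The promoters of the beta genes share a short sequence that most other promoters lack. Clustered protocadherin promoters carry a conserved element with the core CGCT, and the longer form TGGCGCT was chosen after these promoters had been viewed. Searched on both strands of 300-base windows, 250 bases before to 50 after the annotated start, it stood in 13 of 14 beta windows, once in each and on the gene's own strand. It stood in 4.08% of all 35116 windows, in 0 of 13 alpha windows and in 5 of 25 gamma windows, while CGCT alone stood in 70.0% of all windows and in all 14 beta windows. It began between -82 and 0 relative to the start. The beta gene without it was PCDHB1, which was near 0 FPKM in every library. Pieces from 6 genes with the motif in capitals show how alike the flanks are (RefSeq, GRCh38.p14, plus strand). That of PCDHB14 lies at chr5:141223256-141223295.
PCDHB14: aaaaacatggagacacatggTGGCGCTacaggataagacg
PCDHB10: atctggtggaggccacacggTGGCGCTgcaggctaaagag
PCDHB9: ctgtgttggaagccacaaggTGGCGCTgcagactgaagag
PCDHB3: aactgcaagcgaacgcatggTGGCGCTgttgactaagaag
PCDHB4: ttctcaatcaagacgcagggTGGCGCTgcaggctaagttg
PCDHB8: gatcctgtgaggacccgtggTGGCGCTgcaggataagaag
PCDHB8 is shown beside the higher genes because it lay under the filter, at 0.641 and 0.553 FPKM with scrambled miRNA and 0.947 and 0.927 FPKM with the mimic. It carries the motif as the more abundant genes do. Windows were matched for 68 of the 89 genes. Those not matched were CDH1, CDH3, CDH5, CDH6, CDH11, CDH13, CDH15, CDH16, CDH17, CDH22, CDH24, PCDH10, PCDH20, PCDHA3, PCDHA13, PCDHB6, PCDHB11, PCDHB17, PCDHB18, PCDHGA12 and PCDHGC5.

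In the gamma cluster PCDHGC3, a C-type gene that many neurons transcribe alongside their chosen isoforms, made up 53.8% to 68.0% of the summed FPKM and stood first in all 10 libraries. It was 30.7, 30.4 and 30.8 FPKM with scrambled siRNA and 48.5, 45 and 46.7 FPKM with LncND siRNA (log2 change 0.59 ± 0.038, limma adjusted p = 5.2e-07). With scrambled miRNA it was 31.0 and 32.0 FPKM and with the mimic 39.4 and 36.9 FPKM (0.27 ± 0.049, adjusted p = 0.000963). The groups overlapped in neither table, and the change was 0.32 ± 0.06 larger with LncND siRNA (adjusted p = 0.000458).

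The other tested gamma genes also rose with the mimic, but did not pass with LncND siRNA in the main test. Their changes were larger with the mimic, whereas that of PCDHGC3 was larger with LncND siRNA. PCDHGA7 was 6.21 and 6.78 FPKM with scrambled miRNA and 12.4 and 10.5 FPKM with the mimic (log2 change 0.72 ± 0.08, limma adjusted p = 3.9e-05). With scrambled siRNA it was 7.7, 8.51 and 7.89 FPKM and with LncND siRNA 7.39, 9.65 and 8.98 FPKM (0.09 ± 0.079, adjusted p = 0.325). PCDHGB7 was 4.52 and 4.59 FPKM with scrambled miRNA and 7.23 and 7.55 FPKM with the mimic (0.59 ± 0.063, adjusted p = 3.18e-05). It was 4.76 FPKM in each scrambled siRNA library and 4.63, 5.95 and 5.76 FPKM with LncND siRNA (0.16 ± 0.073, adjusted p = 0.083). In both genes LncND siRNA replicate 1 was the lowest of its group, and without it PCDHGA7 (0.19, adjusted p = 0.009) and PCDHGB7 (0.25, adjusted p = 0.000769) passed. The changes differed between the comparisons by -0.63 ± 0.13 and -0.44 ± 0.11 (adjusted p = 0.000928 and 0.00315). PCDHGC4 rose by 0.25 ± 0.07 with the mimic and had a change of -0.06 with LncND siRNA.

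Summed over the 22 gamma rows, which depends less on how fragments were divided within the cluster, the level was higher in both treatments without overlap. It was 54.7, 56.6 and 54.8 FPKM with scrambled siRNA and 71.2, 72.3 and 74.2 FPKM with LncND siRNA. It was 50.6 and 51.2 FPKM with scrambled miRNA and 70.3 and 66.6 FPKM with the mimic. Without PCDHGC3 the LncND siRNA libraries overlapped their controls (22.8 to 27.5 against 24 to 26.2 FPKM), whereas the mimic libraries did not (29.7 and 30.9 against 19.2 and 19.5 FPKM). No test was made on the sums.

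In the alpha cluster PCDHAC2, a C-type gene, stood first in all 10 libraries. With the mimic both C-type genes fell, beside 38.6% of all genes tested. Of the other 5 tested alpha genes, 3 rose, beside 24.6% of all genes, and 2 did not pass. After median-ratio scaling or quantile normalization 4 of these 5 rose. PCDHAC2, 39.2% to 57.2% of the summed FPKM, was 12.8 FPKM in both scrambled miRNA libraries and 8.16 and 7.96 FPKM with the mimic (log2 change -0.60 ± 0.054, limma adjusted p = 1.08e-05). With scrambled siRNA it was 9.28, 10.1 and 9.42 FPKM and with LncND siRNA 8.89, 11.1 and 11.1 FPKM, with overlap (0.09 ± 0.075, adjusted p = 0.298); it passed only without LncND siRNA replicate 1 (0.19, adjusted p = 0.00456). The changes differed by 0.70 ± 0.11 (adjusted p = 9.58e-05).

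PCDHAC1 was 1.27, 1.15 and 1.29 FPKM with scrambled siRNA and 2.05, 2.75 and 2.76 FPKM with LncND siRNA (log2 change 0.65 ± 0.084, limma adjusted p = 7.57e-05). It was 2.36 and 2.14 FPKM with scrambled miRNA and 1.44 and 1.31 FPKM with the mimic (-0.45 ± 0.086, adjusted p = 0.00128). Like CDH11 it rose in the one comparison and fell in the other, and the changes differed by 1.1 ± 0.13 (adjusted p = 6.92e-06).

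PCDHA2, an alternate alpha gene, was 0.692 and 0.604 FPKM with scrambled miRNA and 1.71 and 1.55 FPKM with the mimic (log2 change 0.67 ± 0.093, limma adjusted p = 0.000167). It passed the filter there through the mimic group alone, so its values carry more weight than this p. With scrambled siRNA it was 1.0, 1.28 and 0.852 FPKM and with LncND siRNA 1.24, 1.49 and 1.99 FPKM, with overlap (0.33 ± 0.11, adjusted p = 0.0251). That second call was lost without LncND siRNA replicate 3 (adjusted p = 0.0827), scrambled siRNA replicate 1 (0.0704) or scrambled siRNA replicate 3 (0.0854), and after quantile normalization (0.17, adjusted p = 0.175). PCDHA12 rose in both, by 0.15 ± 0.058 and 0.29 ± 0.09, but with LncND siRNA (adjusted p = 0.0395) it did not pass after median-ratio scaling (0.13, 0.0684), quantile normalization (0.01, 0.904) or rescaling to genes of 300 bp or longer (0.15, 0.0796). Among the others, PCDHA4 rose with the mimic by 0.28 ± 0.089. PCDHA3, PCDHA4 and PCDHA11 with LncND siRNA (0.09, -0.11 and 0.13) and PCDHA8 and PCDHA11 with the mimic (0.22 and 0.04) did not pass. After quantile normalization PCDHA4 passed as lower with LncND siRNA (-0.26, limma adjusted p = 0.00284). PCDHA8 passed as higher with the mimic after quantile normalization (0.29, 0.0309) and median-ratio scaling (0.26, 0.0446). With the mimic the alpha sum was 20.8 and 20.3 FPKM against 22.3 and 22.6 FPKM, but without PCDHAC2 it was 12.6 and 12.3 FPKM against 9.57 and 9.81 FPKM.

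**Figure D5:**
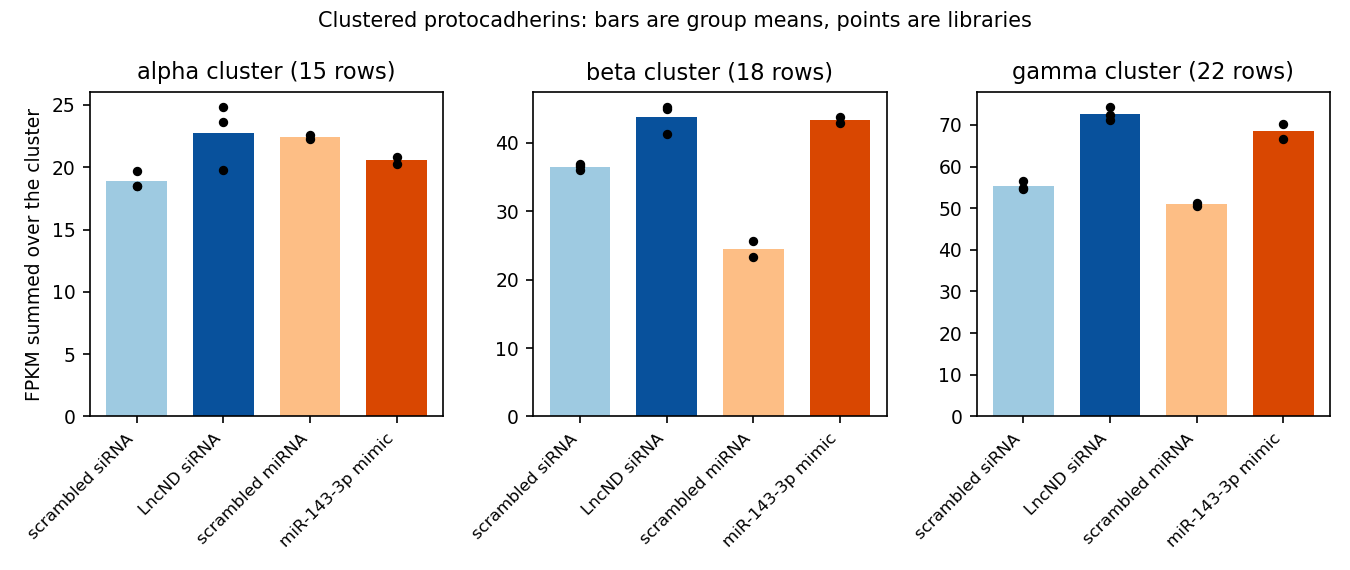
FPKM summed over all rows of the alpha, beta and gamma clusters; bars are group means, points are libraries, and each axis starts at 0. The beta sum with the mimic (43.8 and 42.9 FPKM) is above its controls (23.3 and 25.7 FPKM), while the alpha sum with the mimic (20.8 and 20.3 FPKM) is below them (22.3 and 22.6 FPKM).

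The share of all genes with each joint direction was not computed, so the following counts describe only the 25 genes tested in both tables, which share no library. Of these 25, 8 rose in both comparisons and CDH4 fell in both. Among those 8, the LncND siRNA calls of PCDHA12 and PCDHA2 depended on the scaling. PCDHAC1 and CDH11 rose with LncND siRNA and fell with the mimic. Another 8 rose with the mimic and did not pass with LncND siRNA, and the difference passed for each of these 8. The agents were used at different doses, so the difference compares the treatments as given. The difference of the changes itself passed for 21 of 25, against 60.2% of 12327 genes, with 13 higher under the mimic (22.0% of all genes) and 8 higher under LncND siRNA (38.1%). Differences of at least 1.5-fold were found for 8, against 18.1% of all genes. The 4 whose changes did not differ past the threshold were PCDHA11, PCDHA12, PCDHA2 and CDH24. For PCDHA2 (-0.35, adjusted p = 0.0762) the difference passed with a pseudocount of 0.1 (-0.67, 0.0448), after median-ratio scaling (-0.4, 0.046) or quantile normalization (-0.51, 0.0141), and without LncND siRNA replicate 3 (-0.46, 0.0113) or scrambled siRNA replicate 3 (-0.42, 0.0433).

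The 56 genes under the filter in both tables included 14 below 0.1 FPKM in all 10 libraries: CDH1, CDH5, CDH6, CDH9, CDH10, CDH13, CDH16, CDH17, CDH19, CDH22, PCDH19, PCDHA9, PCDHA13 and PCDHB1. CDH16 was listed at the lowest value of the tables, 0.001 FPKM, in every library. At the filter of 0.3 FPKM, 24 further genes entered the LncND siRNA comparison, of which 5 rose (PCDHA1, PCDHA8, PCDHB8, PCDHGA10 and CDH15) and 6 fell (PCDHGA4, PCDHGB1, PCDHGB2, PCDH7, CDH23 and CDH7). Among all 1555 genes that only this filter admits, 35.7% rose and 11.7% fell. In the mimic comparison 23 further genes entered, of which 9 rose and 5 fell, and the latter were PCDH10, PCDH7, PCDH9, CDH23 and CDH15. Among all 1434 genes that only this filter admits there, 12.3% rose and 20.5% fell. Some calls at this filter rest on genes whose other group lay under 0.3 FPKM. With LncND siRNA these were PCDHA1, PCDHGA10, PCDHGB1, CDH15 and CDH7. With the mimic they were PCDHB7, PCDHB12, PCDHB17, PCDHGA10, PCDH7 and PCDH10. The counts include these genes, but their calls add nothing to their values.

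Genes that act with these proteins were set beside the shares of all genes tested, 36.6% higher and 30.3% lower with LncND siRNA and 24.6% higher and 38.6% lower with the mimic. The listed catenins and related genes changed unevenly with LncND siRNA. Of 10 tested, 4 were higher, near the share of all genes, and 5 lower (2 and 5 after quantile normalization). ARVCF rose from 11.5 ± 0.416 to 23.8 ± 0.557 FPKM (SD, n = 3, log2 change 0.99, limma adjusted p = 3.63e-08), and CTNNA2, the neural alpha catenin, from 7.69 ± 0.469 to 15 ± 0.732 FPKM (0.88). With the mimic 3 of 10 rose and 3 fell, and PKP4, a plakophilin, fell from 14.6 ± 0.442 to 7.44 ± 0.136 FPKM (SD, n = 2, -0.88, adjusted p = 1.14e-06). The list's median change was -0.07 with LncND siRNA and -0.05 with the mimic.

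Of the actin and junction linkers, 3 of 13 rose and 6 fell with LncND siRNA, and 2 rose and 9 fell with the mimic (medians -0.08 and -0.28). The nectins went in different directions with the mimic: PVRL1 rose from 52.6 ± 0.0795 to 103 ± 0.899 FPKM (0.96) and PVRL2 fell from 28.9 ± 1.1 to 14.4 ± 0.353 FPKM (-0.96). With LncND siRNA PVRL2 rose (0.61) and the actin cross-linker ACTN4 fell (-0.62). LIMA1, which binds actin at alpha-catenin, fell with the mimic (-0.80).

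Of the WAVE complex members and kinases that act at protocadherin tails, 5 of 12 rose and 3 fell with LncND siRNA, and 4 rose and 2 fell with the mimic, counts near those shares except for fewer falling with the mimic. WASF3 and WASF2, which drive branched actin assembly, fell with LncND siRNA by 0.99 and 0.80, and the kinase PTK2B rose by 0.72. Of the genes for cadherin processing and trafficking, 6 of 12 rose and 2 fell with LncND siRNA, and 4 rose and 2 fell with the mimic. PCSK6, a proprotein convertase, rose with the mimic from 4.76 ± 0.389 to 11.3 ± 0.486 FPKM (SD, n = 2, 1.09), and the phosphatase PTPN1 from 10.8 ± 0.27 to 22 ± 0.4 FPKM (0.97). Of the rest of the cadherin superfamily, 4 of 9 rose and 2 fell with LncND siRNA, and 4 of 8 rose and 1 fell with the mimic. The calsyntenins CLSTN3 (0.82) and CLSTN2 (0.66) were among those that rose with LncND siRNA. CLSTN2 went from a mean of 0.955 to 2.1 FPKM. It passed the filter through the LncND siRNA group alone, so its values carry more weight than its call.

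The factors known to act on clustered protocadherin promoters and chromatin, among them CTCF, cohesin and DNA methyltransferases, fell with LncND siRNA in 16 of 17 cases, with a median of -0.39, and in 16 of 17 under each other scaling tried, beside 30.3% of all genes. MAU2, the one that did not pass, had a change of -0.06 (limma adjusted p = 0.176). The DNA methyltransferase DNMT1 fell from 50.7 ± 0.819 to 31.3 ± 0.283 FPKM (SD, n = 3, -0.68). With the mimic 5 of 17 rose and 5 fell (median 0.05), beside 24.6% and 38.6% of all genes, and the cohesin subunit STAG2 rose from 14.6 ± 0.845 to 23.4 ± 0.977 FPKM (SD, n = 2, 0.65). Several of these genes also serve DNA replication and cell division. Of the transcription factors that switch between E- and N-cadherin, 4 of 6 tested fell with LncND siRNA (median -0.40), SNAI1 by 0.59, while with the mimic 2 of 5 rose, SNAI1 among them (0.55, adjusted p = 7.69e-05), and 1 fell. ZEB1 was the factor that fell with the mimic (-0.70).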

How the data were processed

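The authors deposited FPKM per gene in 2 tables of 25275 rows, 6 siRNA and 4 miRNA libraries, made with TopHat 1.0.0 and Cufflinks on hg19, per the submitters' processing notes. The tables are read here as other values, not counts, because status words stand among the numbers (LOWDATA in 274 rows, FAIL in 18 and 8). Those rows were dropped, as were 1304 outside the assembled chromosomes, none of them a cadherin or protocadherin row. Depth was estimated from the smallest FPKM steps, since no counts were used.

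Genes averaging 1 FPKM or more over a table were tested with limma 3.58.1 in R 4.3.3 (mean-variance trend, 2-sided) on log2(FPKM + 1) within each table, with a threshold of 0.05 on the Benjamini-Hochberg adjusted p. The difference of both changes was fitted over all 10 libraries. The code was tested on simulated data. Members and gene lists were chosen with earlier results of these data known. Genes were named with library values if they changed by at least 1.5-fold, were among the 5 with the highest mean, or were CDH1, CDH2 or CDH5; CDH15, CDH23, PCDH10 and PCDHB8 were named after their values were seen. Listed genes outside the family were named at 1.5-fold or more, at most 3 per list and comparison. MAU2, and S100B, SNAI1 and VIM with the mimic, were named after their values were seen. Seed matches used the longest 3′ region per gene in GENCODE 29 (GRCh38). Alternatives covered pseudocount, filter, scaling, variance model, replicate block and leaving out each library.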

Additional observations from a re-analysis of the deposited data

How the results depend on the processing

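The filter on low values moved the counts of changed genes. With LncND siRNA 17 genes changed in the main test, 29 at a mean of 0.3 FPKM and 36 with no filter. With the mimic these were 23, 37 and 28 (19 higher and 9 lower), so testing more genes did not always give more calls. For the difference of both changes they were 21, 32 and 38, and at 1.5-fold 8 and, with no filter, 13. Leaving out 1 library gave 15 to 22 (LncND siRNA), 20 to 22 (mimic) and 17 to 22 (difference), and at 1.5-fold 7 to 8, 8 to 12 and 6 to 9. With the mimic, the near-zero changes of CDH2 and PCDH1 turned sign. CDH2 went from 0.00 to -0.02 without mimic replicate 1 and without scrambled miRNA replicate 1. PCDH1 went from -0.04 to 0.00 (median-ratio scaling), 0.04 (quantile normalization) and 0.05 (without scrambled miRNA replicate 1). Their ranges with 1 library left out were -0.02 to 0.03 and -0.12 to 0.05.

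For single genes, 246 of 254 alternative values with LncND siRNA, 202 of 218 with the mimic and 274 of 284 for the difference kept their direction and call. With no filter, PCDHB10 (0.70, adjusted p = 0.0702), PCDHGC3 (0.27, 0.0542) and PCDH17 (0.25, 0.0558) lost their limma calls with the mimic, and PCDHA2 lost its call with LncND siRNA (0.33, 0.154). The cause was not tested. Scaling moved the share of higher genes among all called with the mimic from 38.9% to 49.3% (median-ratio) and 51.8% (quantile), with a shift of the median by 0.06 and 0.08.

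Replicate numbers were not shown to pair the libraries (same-number correlations 0.0682, 0.207 and -0.0533 for siRNA, 0.135 for both mimic pairs). With a replicate block 16 genes changed with LncND siRNA, 24 with the mimic and 20 in the difference, and 8, 11 and 8 at 1.5-fold. Among the genes named by library, the block changed only CDH24 with the mimic, which then passed (0.16, adjusted p = 0.0193). No symbol was repeated, so the choice of row changed nothing, and cluster sums are given with the results.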

Other observations

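The control groups of the separate tables differed for some members, which was not tested because each table was normalized separately and the scrambled agent differs with the table. PCDH10 was 0.176 ± 0.00987 FPKM with scrambled siRNA (SD, n = 3) and 1.32 ± 0.0522 FPKM with scrambled miRNA (SD, n = 2). CDH20 was 0.445 ± 0.0992 and 2.59 ± 0.0552 FPKM, and PCDH1 0.526 ± 0.0547 and 1.6 ± 0.219 FPKM. PCDH18 was lower with scrambled miRNA, at 8.39 ± 0.0993 and 4.12 ± 0.213 FPKM, as was PCDH9 at 2.16 ± 0.179 and 0.977 ± 0.00947 FPKM. The mean beta cluster sum was 36.5 FPKM with scrambled siRNA and 24.5 FPKM with scrambled miRNA. The mimic mean of 43.4 FPKM and the LncND siRNA mean of 43.8 FPKM lay closer together than these controls.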
